A study of Rattus norvegicus with 3 samples.

Results

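The opioid system of the rat nucleus accumbens was described through 7 genes, taken by symbol from the feature lists of the count matrices, which hold 23098 features. They were the opioid peptide precursor genes Penk, Pdyn and Pnoc and the opioid receptor genes Oprm1, Oprd1, Oprk1 and Oprl1. Single-nucleus RNA sequencing had been done on nucleus accumbens punches of outbred Wistar rats at 16 weeks of age, with 5 hemispheres pooled into each library, so values of single animals cannot be read from it. The urolithin A group held rats of the high anxiety class that received urolithin A, which gut bacteria make from plant ellagitannins, for 2 months. The high anxiety group and the low anxiety group held untreated rats, sorted by their scores in an elevated plus maze and in open field and object exploration tests. Each group had 1 library, so no difference below has a replicate check and no test was made. Intervals are at 95% and cover counting error alone.

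Opioid peptides are cut from larger precursors: enkephalins come mainly from Penk, dynorphins from Pdyn and nociceptin from Pnoc. Enkephalins act mostly on the delta receptor (Oprd1) and the mu receptor (Oprm1), dynorphins on the kappa receptor (Oprk1), and nociceptin on its own receptor (Oprl1). All 4 receptors couple to inhibitory G proteins, which lower adenylyl cyclase activity, open inwardly rectifying potassium channels and close voltage-gated calcium channels. In the striatum, enkephalin is a known product of the medium spiny neurons that carry the dopamine receptor Drd2, and dynorphin of those that carry Drd1.

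The urolithin A, high anxiety and low anxiety libraries kept 3421, 3694 and 3379 nuclei after filtering, with median depths of 4726, 4549.5 and 3952 unique molecular identifiers (UMIs, counts of single captured RNA molecules) per nucleus. Of 11424 deposited barcodes, 16 occurred in more than 1 library. Nuclei were clustered without the 7 genes, and clusters took class names from marker genes that included none of them; each class is marker-defined and -like, written below without that suffix. Cluster 4 of the D1 medium spiny neurons had the weaker D1 name, its D1 markers averaging 0.26 in log2 fold over all other clusters, against 0.99 for cluster 2. Clusters 16 and 18 took the eccentric name from eccentric markers alone. Their markers shared by all medium spiny neurons averaged -1.42 and -0.79, against 0.36 in eccentric cluster 8, so their medium spiny neuron name is uncertain. Levels are UMIs of a gene per 1000000 UMIs of a class and library (CPM) and are compared between classes and libraries, not between genes. Shares of nuclei are given after each nucleus with at least 2000 UMIs was thinned at random to 2000 UMIs. This removes differences in depth between classes among the nuclei used, and shallower nuclei were left out. Median depths were 1879, 1889 and 1599 UMIs in urolithin A, high anxiety and low anxiety microglia and 1821 UMIs in low anxiety oligodendrocytes. Most of those nuclei are therefore not in the shares. Oligodendrocytes, which are not known as a main source of these transcripts, served as the background for RNA set free in the tissue. The low anxiety library stood apart there: Penk was at 22.4 and 21.1 CPM in urolithin A and high anxiety oligodendrocytes and at 61.2 CPM in low anxiety ones. Low anxiety was also the highest library in microglia (15.3 and 22.0 CPM, and 78.8 CPM), in astrocytes (14.7 and 15 CPM, and 51.3 CPM) and in oligodendrocyte precursors (17.8 and 11.7 CPM, and 79.8 CPM).

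Promoter sequence is shown for Pdyn and Oprd1, the pair of genes with a reference promoter whose levels lay on opposite sides of the divide between D1 and D2 neurons described below. Each run holds the 250 bases before the annotated start, 5′ to 3′ on the gene's own strand, from RefSeq on build GRCr8; the data here bear on transcript levels, not on binding at these sites. Capitals in the Pdyn line (chr3:137366504-137366753, minus strand) mark a TATAAA.
Pdyn: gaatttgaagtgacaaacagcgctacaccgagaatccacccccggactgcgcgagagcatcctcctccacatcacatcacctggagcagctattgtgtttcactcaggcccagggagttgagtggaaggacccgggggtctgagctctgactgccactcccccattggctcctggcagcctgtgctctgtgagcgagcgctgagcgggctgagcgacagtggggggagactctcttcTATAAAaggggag
Capitals in the Oprd1 line (chr5:149625000-149625249, minus strand) mark GGGCGG, its reverse complement CCGCCC, and a CACGTG.
Oprd1: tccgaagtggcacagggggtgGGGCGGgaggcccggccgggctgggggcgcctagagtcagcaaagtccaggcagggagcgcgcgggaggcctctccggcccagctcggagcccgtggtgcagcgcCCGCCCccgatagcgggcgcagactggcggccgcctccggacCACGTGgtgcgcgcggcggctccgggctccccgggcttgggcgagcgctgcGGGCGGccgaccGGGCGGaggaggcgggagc
The TATAAA of Pdyn began 13 bases before the start. TATAAA was present on either strand in 12.9% of all 33469 reference promoters of this length. The Oprd1 run held 4 GGGCGG or CCGCCC and 1 CACGTG, which 30.5% and 5.59% of all promoters held. TGACGTCA, the full cyclic AMP response element, was in neither run and in 1.59% of promoters. G and C made up 59.2% of the Pdyn run and 79.6% of the Oprd1 run, with a median of 51.2% over all promoters.

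Penk, the enkephalin precursor, was concentrated in D2 medium spiny neurons, the striatal projection neurons of the indirect pathway. D2 neurons had 2495 CPM in urolithin A, 2022 CPM in high anxiety and 2236 CPM in low anxiety. They made up 15.4%, 13.8% and 16.4% of nuclei in that order of libraries and held 80.2%, 76.0% and 75.7% of all Penk UMIs. High anxiety was lowest of the 3 and urolithin A highest, and no counting interval of one library overlapped that of another (2443 to 2548, 1977 to 2067, and 2186 to 2287 CPM). The next level was that of eccentric medium spiny neurons, a class apart from the classical D1 and D2 neurons, at 782, 750 and 785 CPM. Here the 3 libraries lay within each other's counting intervals. D1 medium spiny neurons, the direct pathway, followed far below at 50.9 CPM in urolithin A, 45.9 CPM in high anxiety and 76.5 CPM in low anxiety.

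Within the D2 class, a Penk UMI was found in 94.5% of thinned nuclei in urolithin A (495 of 524), 86.1% in high anxiety (434 of 504) and 92.4% in low anxiety (510 of 552). Oligodendrocytes gave 3.48%, 2.80% and 9.68%, at median depths of 2157, 2257 and 1821 UMIs before thinning, against 6427, 7200 and 5661 UMIs in D2 neurons. High anxiety thus had the most D2 nuclei with no Penk UMI: without thinning they were 11 of 528 nuclei in urolithin A, 41 of 509 in high anxiety and 12 of 554 in low anxiety. Of these 41, a Drd2 UMI was found in 33 nuclei (80.5%) and an Adora2a UMI in 26 (63.4%), against 93.2% and 92.1% of the other high anxiety D2 nuclei. In urolithin A 6 of the 11 nuclei held Drd2 and 7 held Adora2a, and in low anxiety 5 of the 12 held each. A Drd1 UMI was found in 18.2%, 9.76% and 8.33% of the nuclei without Penk, against 4.45%, 2.14% and 4.80% of the rest. D2 markers were thus less frequent, and Drd1 more frequent, in nuclei without Penk in each library, on few nuclei (2, 4 and 1 for Drd1). These shares are not thinned, and nuclei without Penk were shallower, at medians of 5229, 5660 and 3785 UMIs against 6438, 7259 and 5703. The part of depth in the marker shares was not tested. At the other end, thinned D2 nuclei with 10 or more Penk UMIs made up 11.1% in urolithin A, 6.94% in high anxiety and 6.52% in low anxiety.

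**Figure D1:**
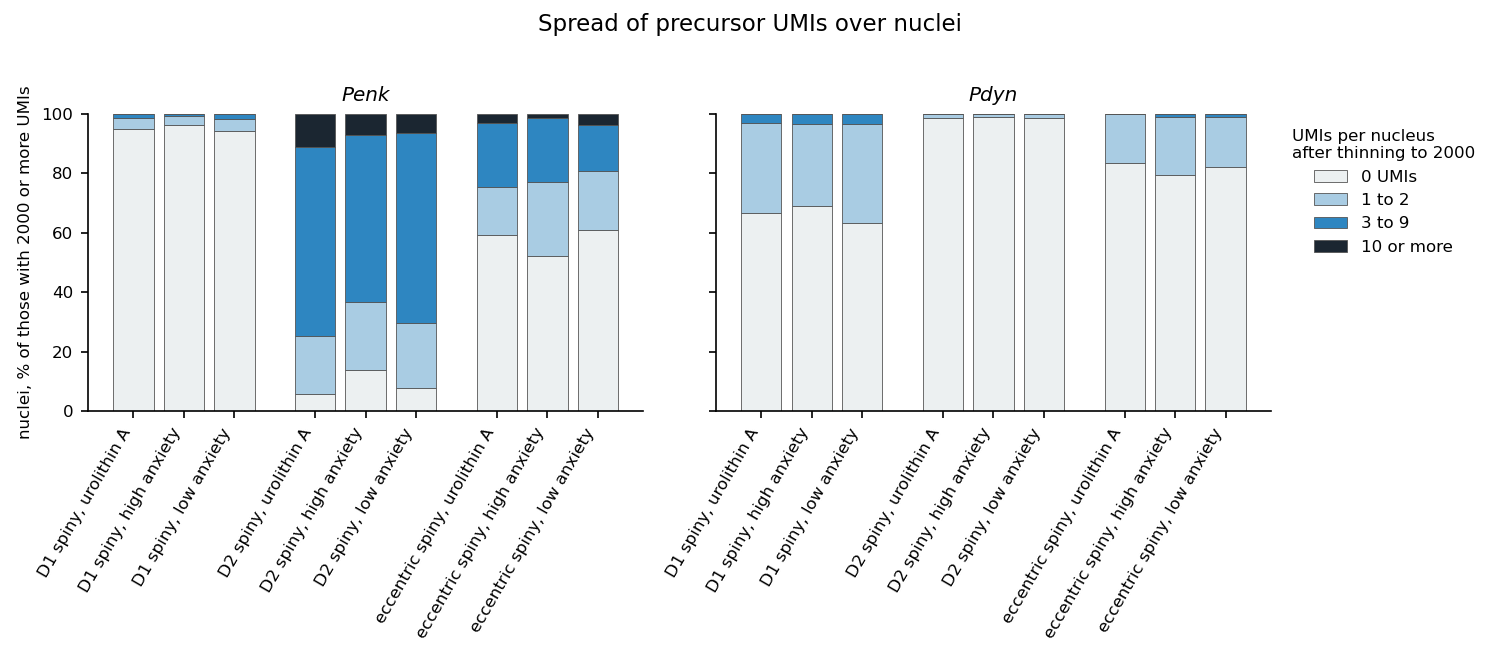
Stacked bars give the percentage of nuclei with 0, 1 to 2, 3 to 9 or 10 or more UMIs of Penk (left) and Pdyn (right) after thinning to 2000 UMIs, for D1, D2 and eccentric medium spiny neurons in the urolithin A, high anxiety and low anxiety libraries. Nuclei with no Penk UMI made up 5.53%, 13.9% and 7.61% of D2 nuclei and over 94% of D1 nuclei in each library.

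Eccentric neurons were uneven in Penk. Cluster 16, led by Chst9 and Col14a1, had 1739 CPM in urolithin A, 1590 CPM in high anxiety and 1608 CPM in low anxiety, close to the D2 level. Cluster 8, led by Casz1 and Tac3, had 634, 598 and 788 CPM, and its low anxiety value stood above the others. Penk was also present in cluster 15, an unnamed neuronal cluster led by Itgb6 and Grpr, at 391, 544 and 373 CPM. In that cluster high anxiety was the highest of the 3.

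The low Penk of D1 neurons was carried by few nuclei. Nuclei with 10 or more Penk UMIs numbered 9 of 755 in urolithin A, 4 of 653 in high anxiety and 10 of 756 in low anxiety, and held 53.2%, 57.4% and 61.1% of the class's Penk UMIs. A Drd2 UMI occurred in 5, 2 and 5 of these nuclei, against 1.74%, 1.69% and 1.21% of the remaining D1 nuclei. A Drd1 UMI occurred in 2, 2 and 4 of them, against 70.1%, 78.1% and 70.4% of the remaining nuclei. The remaining D1 nuclei had 24.1 CPM in urolithin A, 19.7 CPM in high anxiety and 30.4 CPM in low anxiety. After thinning, 5.06%, 3.70% and 5.59% of D1 nuclei held a Penk UMI. The low anxiety share lay below that of oligodendrocytes (9.68%), but D1 nuclei were deeper before thinning, at a median of 6032 UMIs against 1821. Per 100 nuclei before thinning, low anxiety D1 neurons held 48.3 Penk UMIs and oligodendrocytes 12.1. Without the nuclei of 10 or more Penk UMIs, 746 D1 nuclei there held 142. The part of background in the D1 Penk level was not tested. A single low anxiety nucleus also set the cholinergic level of that library, with 53 of the class's 60 Penk UMIs.

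Pdyn, the dynorphin precursor, showed the opposite distribution. D1 neurons had 247 CPM in urolithin A, 211 CPM in high anxiety and 257 CPM in low anxiety, and held 83.0%, 76.1% and 78.0% of all Pdyn UMIs. High anxiety was again the lowest, and the other two overlapped in their counting intervals (234 to 261, 199 to 224 and 243 to 272 CPM). D2 neurons had 8.18, 4.72 and 9.76 CPM, and oligodendrocytes 6.53, 4.30 and 10.8 CPM. A Pdyn UMI was found in 33.4%, 30.9% and 36.9% of thinned D1 nuclei, against 1.34%, 1.19% and 1.27% of D2 nuclei and 1.28%, 1.03% and 3.23% of oligodendrocytes. In CPM and thinned share, Pdyn in D2 neurons thus stood near or below oligodendrocytes. Per 100 nuclei before thinning it was higher, at 5.49, 3.54 and 5.96 UMIs against 1.51, 1.05 and 2.13 in the shallower oligodendrocytes. The part of background in the D2 level was not tested.

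Both D1 clusters carried Pdyn. Cluster 2, led by Ebf1, Reln and Dlk1, had 285 CPM in urolithin A, 267 CPM in high anxiety and 309 CPM in low anxiety. Cluster 4, marked by Nmb, Drd3 and Htr4, had 175, 145 and 196 CPM, lower than cluster 2 by 0.70, 0.89 and 0.66 on the log2 scale. Eccentric neurons held both precursors, with Pdyn at 113, 127 and 130 CPM. In cluster 8 it was at 128, 139 and 164 CPM, and in cluster 16, the cluster richest in Penk among them, at 56.9, 78.3 and 84.2 CPM.

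**Figure D2:**
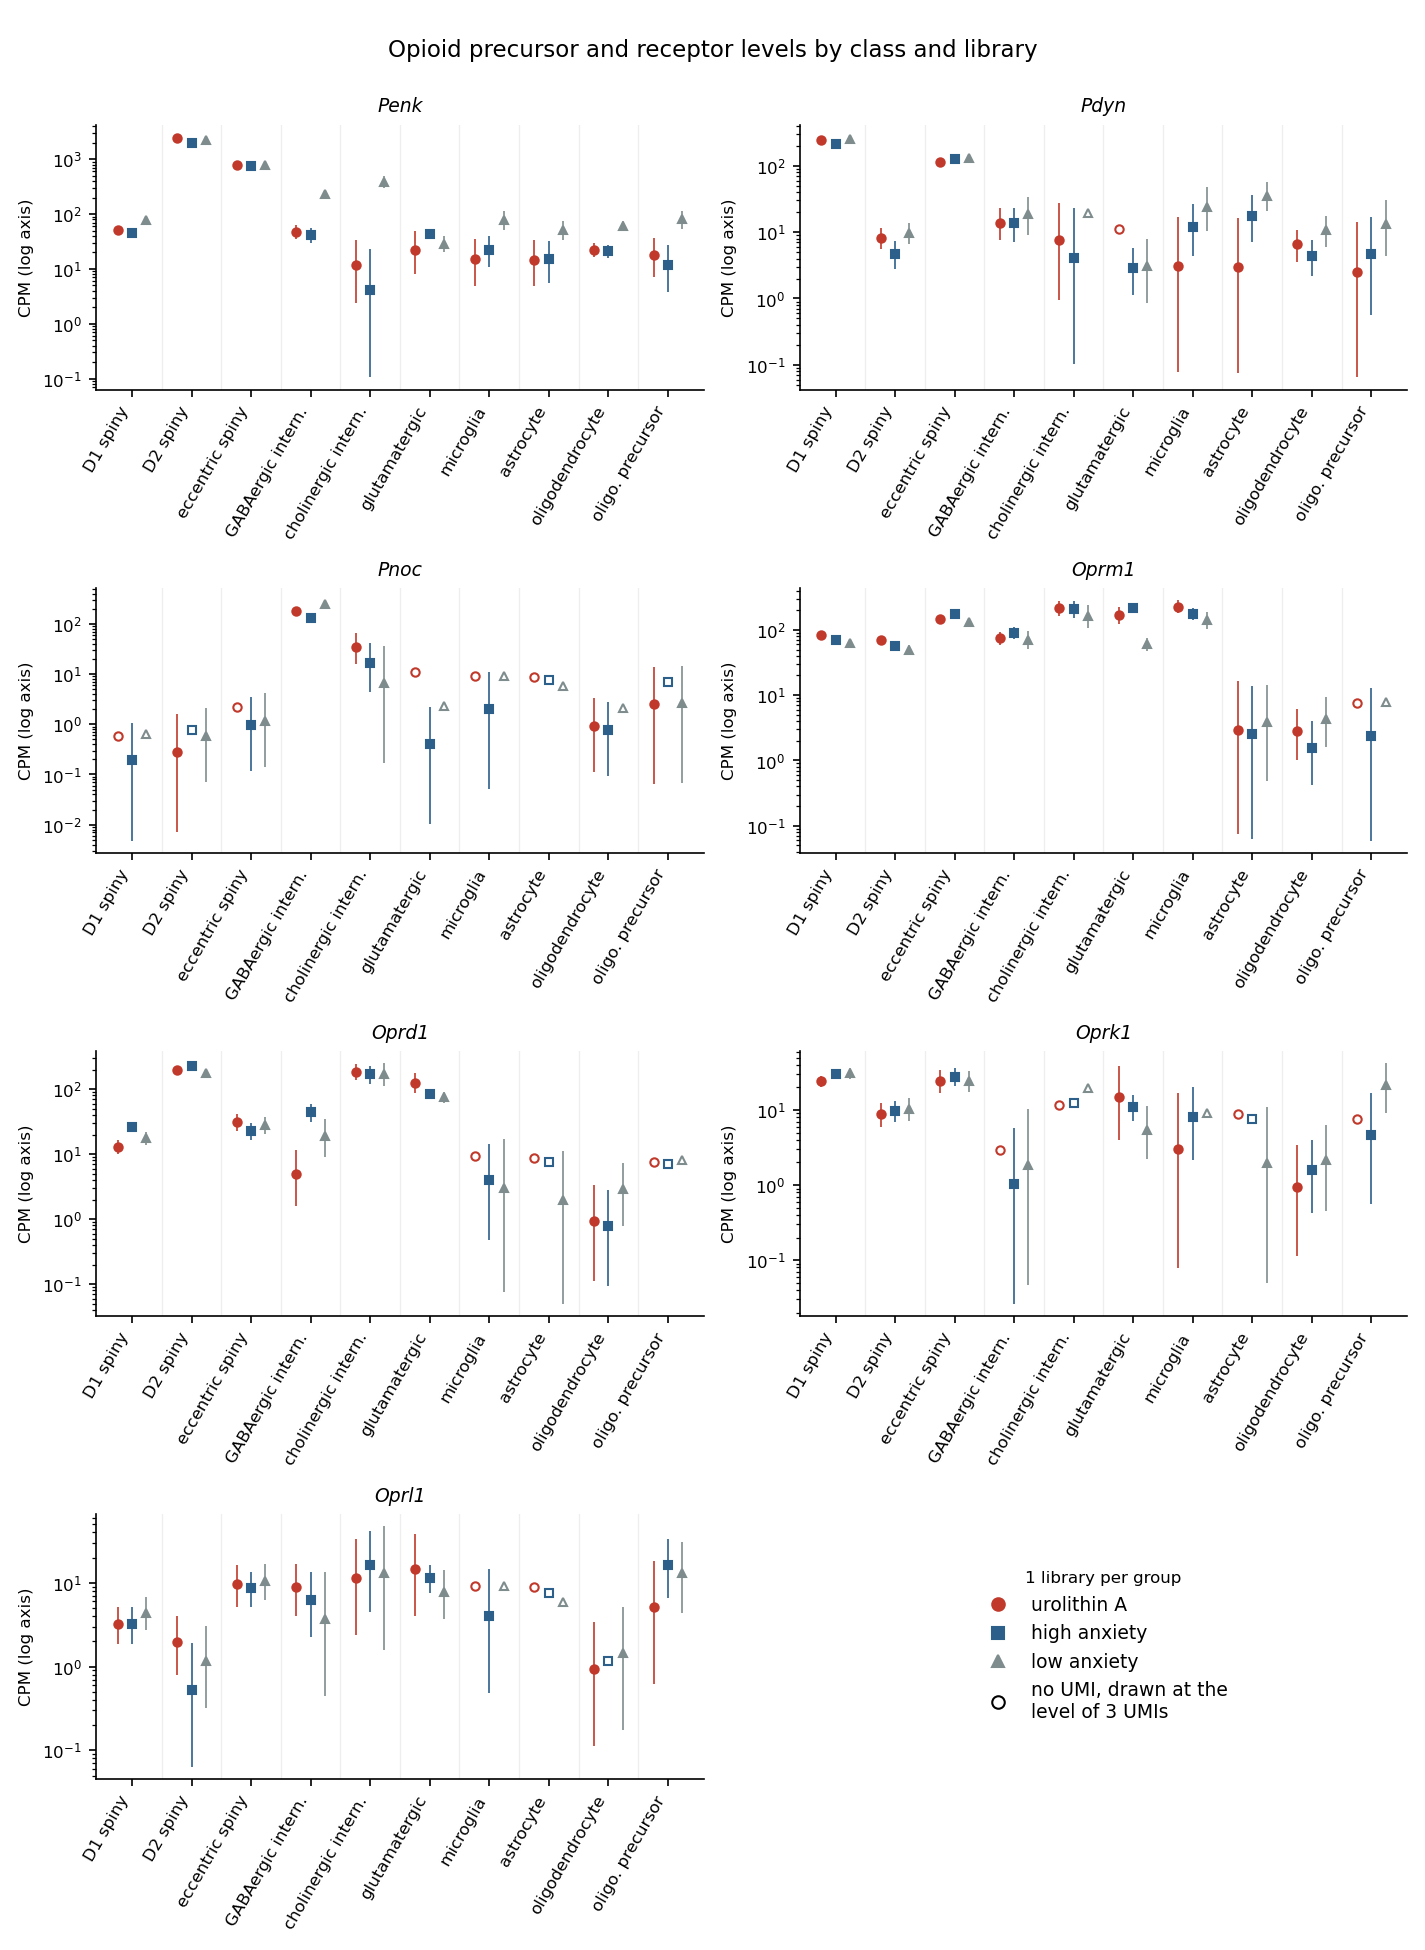
Each panel gives the level of 1 gene in CPM (log axis) in 10 marker-defined classes, with urolithin A, high anxiety and low anxiety side by side, 1 library each. Bars are exact 95% Poisson intervals for counting error, and open symbols mark classes with no UMI, drawn at the level of 3 UMIs; Penk peaked in D2, Pdyn in D1 and Pnoc in GABAergic interneurons in all 3 libraries.

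Pnoc, the nociceptin precursor, was found mainly in GABAergic interneurons, which held 58.1%, 81.3% and 83.3% of its UMIs in the urolithin A, high anxiety and low anxiety libraries; unnamed nuclei held 37.7%, 10.3% and 12.96%. GABAergic interneurons had 180 CPM in urolithin A, 131 CPM in high anxiety and 252 CPM in low anxiety, while D1 neurons had 0, 1 and 0 Pnoc UMIs and D2 neurons 1, 0 and 2. Medium spiny neurons of these classes were therefore at or under a floor of 3 counts in every library. Cluster 20, whose leading genes include Npy, Sst, Chodl and Nos1, gave most of the interneuron UMIs in urolithin A and low anxiety (159 of 182 and 81 of 135), and 31 of 126 in high anxiety. It stood at 521 CPM in urolithin A, 183 CPM in high anxiety and 534 CPM in low anxiety. That cluster held 47, 22 and 27 nuclei, and a thinned Pnoc UMI was found in 53.2%, 31.8% and 44.4% of them; the share intervals of all 3 libraries overlapped. Cluster 24, led by Vip, had 276, 318 and 402 CPM from 4, 27 and 17 nuclei and gave 89 of the 126 UMIs in high anxiety, and cluster 14, marked by Pthlh, Trh and Kit, had 20.8, 11.7 and 29.6 CPM. Outside the interneurons, cluster 11, an unnamed cluster with Crh, Galr1 and Klhl1, had 62.8 CPM in urolithin A, 21.6 CPM in high anxiety and 34.6 CPM in low anxiety. Cluster 11 held 231, 75 and 85 nuclei and 118, 15 and 20 of the 313, 155 and 162 Pnoc UMIs of the libraries.

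Among the receptors, Oprm1, the mu receptor, was the most widely spread. Among clusters named medium spiny neurons, its highest levels were in eccentric cluster 16, where the shared medium spiny neuron markers were low. Oprm1 was there at 360 CPM in urolithin A, 441 CPM in high anxiety and 333 CPM in low anxiety, with a thinned UMI in 19 of 45, 39 of 65 and 25 of 55 nuclei. Eccentric cluster 8 had 112, 123 and 118 CPM. D1 neurons had 83.1 CPM in urolithin A, 70.4 CPM in high anxiety and 63.3 CPM in low anxiety. D2 neurons had 69.6, 55.6 and 50.0 CPM in the same order of libraries, slightly under D1 neurons in each. Thinned shares were 14.1%, 12.7% and 9.59% in D1 neurons and 13.9%, 11.1% and 8.51% in D2 neurons, against 0.92%, 0.29% and 1.43% in oligodendrocytes. In both classes taken whole, urolithin A was the highest and low anxiety the lowest. This order did not hold within D1 clusters 2 and 4 or D2 cluster 5. The difference between high anxiety and low anxiety lay within counting error in both classes, as given below. GABAergic interneurons had 75.1, 90.4 and 70.9 CPM, with overlapping intervals. Cholinergic interneurons, with 26, 18 and 15 nuclei, had 216, 206 and 164 CPM, within each other's counting intervals.

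Cluster 16 was set beside marker lists of the striatal compartments, since the mu receptor is a known marker of striosomes, patches within the striatal matrix. The summed level of 5 genes of the matrix list was 52.1 CPM in urolithin A, 37.7 CPM in high anxiety and 92.6 CPM in low anxiety in cluster 16, against 717, 760 and 739 CPM in D1 cluster 2. The 6 matched genes of the striosome list, without Oprm1, summed to 834, 870 and 808 CPM in cluster 16, against 382, 426 and 391.8 CPM in D1 cluster 2. They were higher still in eccentric cluster 8, at 1404, 1176 and 1235 CPM, where Oprm1 was lower than in cluster 16. The order of the striosome list and that of Oprm1 therefore differed between the 2 eccentric clusters.

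Outside medium spiny neurons Oprm1 was high in glutamatergic neurons, which are typical of regions beside the accumbens, and in microglia. Glutamatergic neurons numbered 21, 198 and 99 nuclei and had 167 CPM in urolithin A, 218 CPM in high anxiety and 60.8 CPM in low anxiety. They held 3.46%, 29.5% and 8.25% of all Oprm1 UMIs of the libraries. Microglia had 227 CPM in urolithin A, 174 CPM in high anxiety and 142 CPM in low anxiety, with a thinned UMI in 34.3%, 29.6% and 12.8% of nuclei. The levels of glutamatergic neurons and microglia are uncertain, because Oprm1 overlaps Ipcef1 on the opposite strand in the RefSeq annotation. No source used here says whether the counting used strand. Ipcef1 had 141, 138 and 136 CPM in microglia, 51.9, 52.7 and 59.3 CPM in glutamatergic neurons and 9.34, 10.1 and 8.80 CPM in D1 neurons. Over 631 microglia, 39.3% of the nuclei with an Ipcef1 UMI also held an Oprm1 UMI, and 24.03% of the others. The other 6 genes overlapped no coding gene in that annotation. Astrocytes, oligodendrocytes and oligodendrocyte precursors had at most 4.32 CPM of Oprm1 in any library.

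Oprd1, the delta receptor, shared the D2 neurons with Penk. D2 neurons had 195 CPM in urolithin A, 230 CPM in high anxiety and 178 CPM in low anxiety, and held 73.4%, 63.5% and 66.7% of all Oprd1 UMIs. High anxiety was the highest, and the intervals of the other two overlapped (181 to 211, 215 to 246, and 164 to 193 CPM). Cholinergic interneurons were at a similar level, 186, 169 and 170 CPM, and glutamatergic neurons had 126, 82.7 and 74.9 CPM. D1 neurons had 12.96, 26.2 and 17.6 CPM, and oligodendrocytes at most 2.88 CPM.

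The low D1 level of Oprd1 was an average of unlike clusters. Cluster 4 had 32.9 CPM in urolithin A, 54.5 CPM in high anxiety and 33.3 CPM in low anxiety. Cluster 2 had 2.34, 2.44 and 4.27 CPM, on 8, 7 and 11 UMIs from 509, 387 and 437 nuclei. Oligodendrocytes were lower in each library, at 0.93, 0.78 and 2.88 CPM, on 2, 2 and 4 UMIs from 925, 1043 and 704 nuclei. The part of background in the cluster 2 level was not tested. Cluster 4 exceeded cluster 2 by log2 ratios of 3.81 (2.74 to 5.09), 4.48 (3.40 to 5.82) and 2.96 (2.04 to 4.03) in urolithin A, high anxiety and low anxiety. The D2 class was also uneven: cluster 3 had 256, 282 and 203 CPM, and cluster 5, led by Calcr, had 139.9, 161.6 and 125.3 CPM. Oprm1 ran the other way between these clusters, at 50.9, 47.5 and 37.0 CPM in cluster 3 and 86.7, 66.2 and 77.4 CPM in cluster 5. For Oprd1 cluster 5 was lower than cluster 3 in each library by 0.87, 0.80 and 0.70 on the log2 scale, and for Oprm1 it was higher by 0.77, 0.48 and 1.06. Penk differed between them by 0.06, 0.18 and 0.06.

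**Figure D3:**
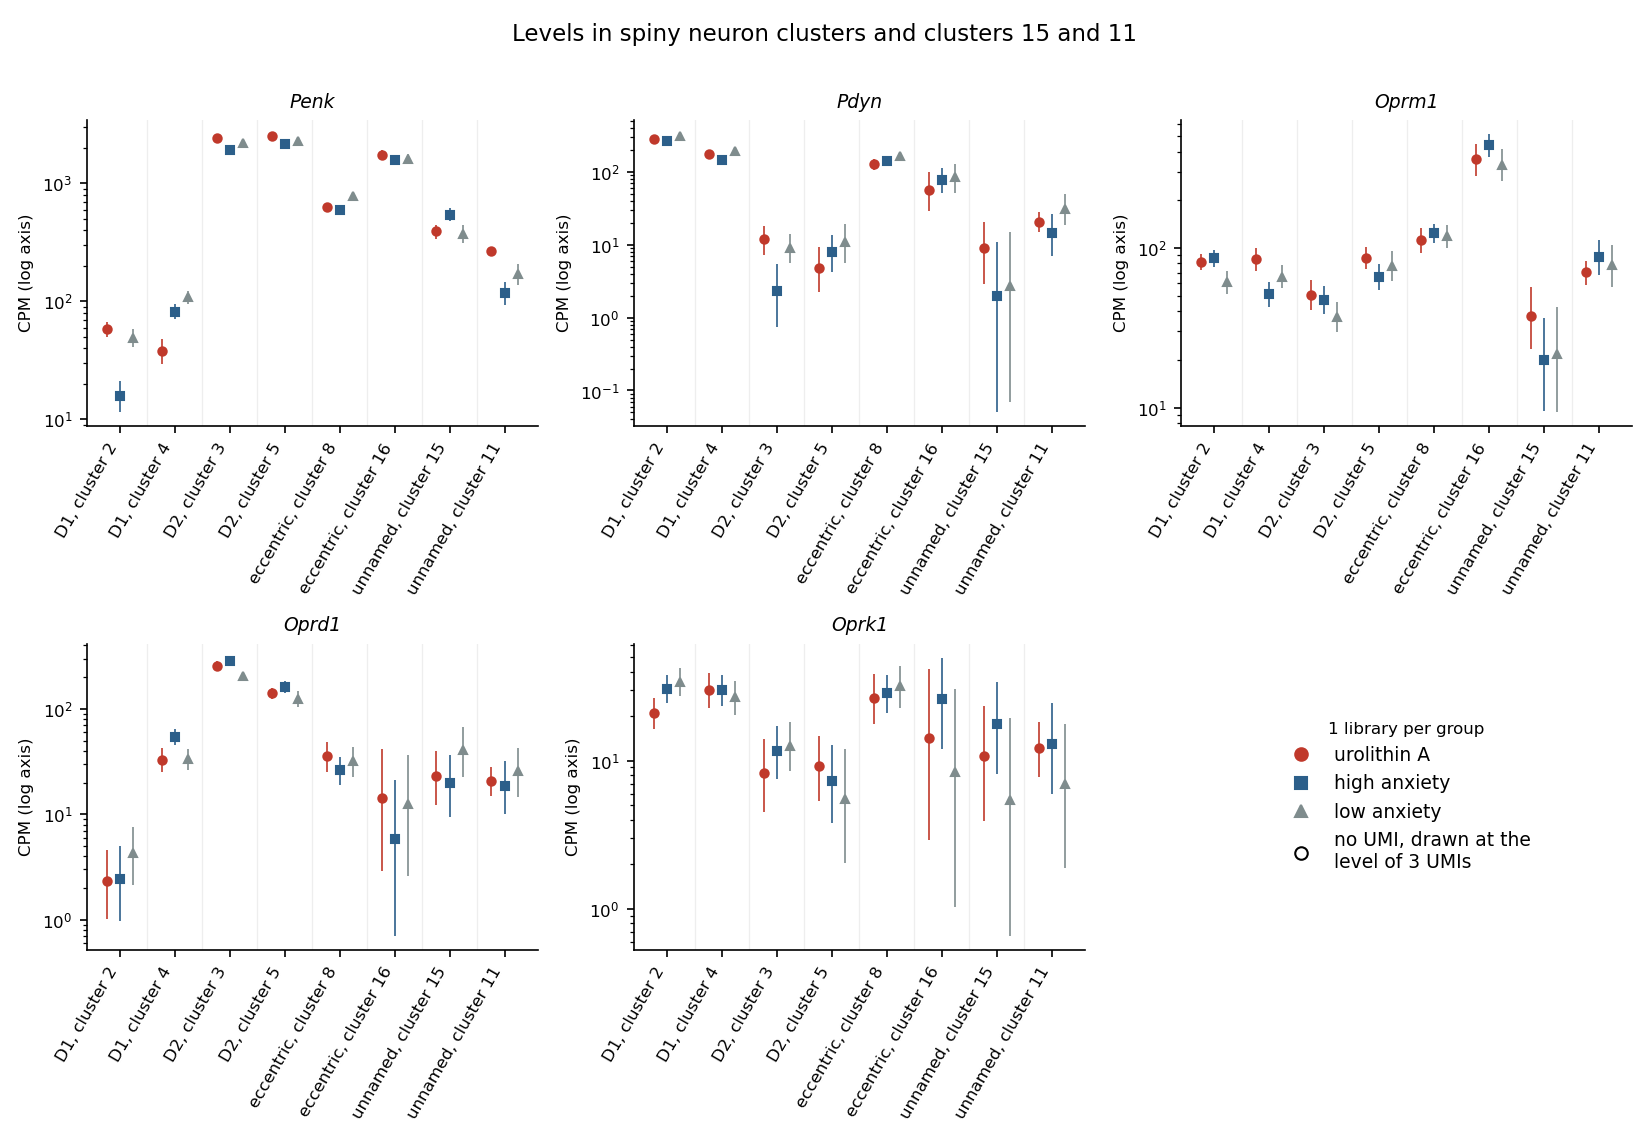
Levels in CPM (log axis) of Penk, Pdyn, Oprm1, Oprd1 and Oprk1 are given for 6 medium spiny neuron clusters and the unnamed clusters 15 and 11, with urolithin A, high anxiety and low anxiety side by side and exact 95% Poisson intervals. Oprd1 was over 30 CPM in D1 cluster 4 and under 5 CPM in D1 cluster 2 in all 3 libraries, and of the clusters drawn, eccentric cluster 16 had the highest Oprm1.

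Oprk1, the kappa receptor on which dynorphins act, was sparse, with 227, 313 and 250 UMIs in the urolithin A, high anxiety and low anxiety libraries. D1 neurons had 24.2 CPM in urolithin A, 30.4 CPM in high anxiety and 30.8 CPM in low anxiety, and D2 neurons 8.74, 9.70 and 10.4 CPM. Eccentric neurons stood near D1 neurons, at 24.4, 27.8 and 24.1 CPM. In D1 neurons, which make its ligand, a thinned UMI was found in 3.33%, 5.40% and 4.79% of nuclei, against 0.37%, 0.29% and 0.36% of oligodendrocytes. Cholinergic interneurons held 0 Oprk1 UMIs in all 3 libraries, which allows up to 4.59 CPM over the 59 nuclei. Interneuron clusters 14 and 20 held 0 as well, which allows up to 2.06 and 4.79 CPM, so Oprk1 was not detected in these interneurons at a level near that of D1 neurons.

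Oprl1, the nociceptin receptor, was the scarcest receptor, with 98, 103 and 78 UMIs in the urolithin A, high anxiety and low anxiety libraries. Over all libraries it stood at 13.8 CPM in cholinergic interneurons, on 3, 4 and 2 UMIs, at 11.7 CPM in oligodendrocyte precursors and at 10.4 CPM in glutamatergic neurons, with overlapping intervals. Cluster 11 was the best sampled, with 18.6, 18.7 and 17.3 CPM on 35, 13 and 10 UMIs; this cluster held its ligand precursor Pnoc as well. D1 neurons had 3.24, 3.23 and 4.4 CPM, and D2 neurons 1.97, 0.53 and 1.18 CPM on 7, 2 and 4 UMIs. No difference of Oprl1 between libraries was detectable at this depth.

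D2 neurons were set against D1 neurons within each library. The log2 ratio of D2 over D1 was 5.62 (5.44 to 5.80) in urolithin A, 5.46 (5.28 to 5.65) in high anxiety and 4.87 (4.72 to 5.02) in low anxiety for Penk. For Oprd1 it was 3.91, 3.13 and 3.34, and for Pdyn -4.92, -5.49 and -4.72. Oprk1 was at -1.47, -1.65 and -1.57, on the side of Pdyn. Oprm1 was slightly below 0, at -0.25 (-0.49 to -0.03), -0.34 (-0.59 to -0.09) and -0.34 (-0.62 to -0.06). The enkephalin precursor and the delta receptor thus stood on the D2 side in every library, the dynorphin precursor and the kappa receptor on the D1 side, and the mu receptor at similar levels on both. In all, 5 of the 7 genes were at least 1.5-fold apart in all 3 libraries. The share of all genes that far apart was not computed, so no weight is placed on this count. Oprl1 was among the 5 on few UMIs, and its interval in urolithin A included 0 (-0.71, -2.23 to 0.63). Pnoc had too few UMIs in both classes for a ratio.

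A precursor and a receptor were found in the same nucleus at about the rate that the separate shares give. Shared nuclei were frequent for Penk with Oprd1 and rare for Pdyn with Oprk1. After thinning, Penk and Oprd1 were both found in 25.9% of 1580 D2 nuclei, and the product of the 2 shares was 25.9%. Pdyn and Oprk1 were both found in 1.72% of 2150 D1 nuclei, with a product of 1.51%. Oprm1 and Oprd1 were both found in 2.34% of D2 nuclei, below their product of 3.17%, on 37 nuclei. The low anxiety library lay closest to its product there, at 2.17% and 2.34%, while urolithin A stood at 2.86% and 3.86% and high anxiety at 1.98% and 3.37%.

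Penk and Pdyn occurred together in eccentric neurons. Both were found in 10.8% of 863 thinned eccentric nuclei, above the product of 7.91%. A Penk UMI was found in 58.1% of the nuclei with Pdyn and in 39.1% of the others. The same direction held in each library: 63.2% against 36.3% in urolithin A, 60% against 44.6% in high anxiety, and 52.6% against 36.0% in low anxiety. In D1 neurons the pair was no more frequent than the product, at 1.35% and 1.64% of nuclei. There, 13 of the 104 nuclei with a Penk UMI held an Oprd1 UMI (12.5%), and 2.64% of the others. Both are D2 genes, and the D1 nuclei rich in Penk also carried Drd2 as given above; the part of those nuclei, or of doublets that the score did not remove, in this pair was not tested. Nuclei were not used as replicates, so these shares describe the pooled libraries only.

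The libraries were compared in the classes and clusters with at least 100 nuclei in each library, for genes with at least 100 UMIs in 1 of the 2 libraries, called measured; a gene was counted when its CPM differed by 1.5-fold or more. The question was how opioid transcripts differ between the anxiety classes and with urolithin A. In D1 neurons, high anxiety over low anxiety, 1 of 5 measured opioid genes was past 1.5-fold, and 5.02% of all 7463 measured genes were. That gene was Penk, with 45.9 CPM in high anxiety and 76.5 CPM in low anxiety, a log2 ratio of -0.74 (-0.98 to -0.50). Without the D1 nuclei with 10 or more Penk UMIs, a choice made after the data were seen that leaves nuclei out by the measured quantity itself, it was -0.62. Penk in oligodendrocytes was also lower in high anxiety (21.1 CPM) than in low anxiety (61.2 CPM), and with the oligodendrocyte UMIs per nucleus of each library taken off, also a choice made after the data were seen, the D1 ratio was -0.54, under 1.5-fold. It was under 1.5-fold too under a stricter nucleus filter (-0.24), at a finer clustering (-0.55) and with the opioid genes kept for clustering (-0.51). In the largest cluster alone, cluster 2, it was larger, at -1.65, and alternative settings there gave -1.86 to -0.99. Within cluster 4 it was -0.40, and alternative settings gave -0.40 to 0.07. The class ratio kept its sign in all 13 alternative settings. Oprd1 was at 26.2 CPM in high anxiety and 17.6 CPM in low anxiety, a log2 ratio of 0.57 (0.17 to 0.98) and 1.49-fold. Pdyn was lower in high anxiety, at -0.28 (-0.40 to -0.16). Oprm1 and Oprk1 differed by 0.15 and -0.02, with intervals that included 0.

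In D1 neurons, urolithin A over high anxiety, 1 of 5 measured opioid genes was past 1.5-fold, and 2.22% of all measured genes were. It was Oprd1, at 12.96 CPM in urolithin A and 26.2 CPM in high anxiety, a log2 ratio of -1.02 (-1.46 to -0.59). It was at -1.24 under the stricter nucleus filter and -1.13 after thinning, where it fell under the UMI minimum and was no longer counted, and at -0.06 within cluster 2, on 8 and 7 UMIs. Within cluster 4, which held most Oprd1 UMIs of the class, it was at -0.73. Cluster 4 made up 246 of 755 D1 nuclei in urolithin A and 266 of 653 in high anxiety. The part of this mix in the class ratios was not tested. Pdyn was higher in urolithin A by 0.22 (0.11 to 0.34) and Oprm1 by 0.24 (0.04 to 0.44). Pdyn was at 0.28 within cluster 4 and 0.09 within cluster 2, where alternative settings gave -0.02 to 0.11. Penk differed by 0.15 and Oprk1 by -0.33, with intervals that included 0. The comparison shares its high anxiety library with the one above, so a high or low value of that library enters both with opposite sign. In urolithin A over low anxiety, 1 of 4 measured opioid genes was past 1.5-fold in D1 neurons, and 3.88% of all measured genes were. That gene was Penk, at -0.59 (-0.82 to -0.36), just past 1.5-fold. It was at -0.33 without the nuclei rich in Penk and -0.40 with the oligodendrocyte level taken off, and its sign turned under the stricter nucleus filter (0.10) and within cluster 2 (0.23). Oprm1 was higher in urolithin A than in low anxiety by 0.39 (0.18 to 0.61).

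In D2 neurons no opioid gene was past 1.5-fold in any comparison, where 4.24%, 2.17% and 3.65% of all measured genes were in high anxiety over low anxiety, urolithin A over high anxiety and urolithin A over low anxiety. Penk had log2 ratios of -0.15 (-0.19 to -0.10), 0.30 (0.26 to 0.35) and 0.16 (0.11 to 0.20) in these comparisons. Oprd1 had ratios of 0.37 (0.22 to 0.52), -0.24 (-0.38 to -0.09) and 0.13 (-0.03 to 0.29). Oprm1 had ratios of 0.15 (-0.14 to 0.45), 0.32 (0.05 to 0.60) and 0.48 (0.19 to 0.77). Penk and Oprd1, both abundant in D2 neurons, thus stood at opposite ends in the high anxiety library: Penk was lowest there and Oprd1 highest. Most D2 nuclei came from cluster 5 in urolithin A (292 of 528) and from cluster 3 in high anxiety (275 of 509) and low anxiety (345 of 554). Within cluster 3 Penk had ratios of -0.21, 0.35 and 0.15, and within cluster 5 of -0.08, 0.23 and 0.15. Within cluster 3 Oprd1 had ratios of 0.47, -0.14 and 0.33, and within cluster 5 of 0.37, -0.21 and 0.16. The signs of Penk and Oprd1 were thus those of the whole class. Oprm1 in high anxiety over low anxiety was at 0.36 within cluster 3 and -0.22 within cluster 5. In urolithin A over high anxiety it was at 0.10 and 0.39. In urolithin A over low anxiety it was at 0.16 within cluster 5 and not measured in cluster 3. The part of the cluster mix in the class ratios of Oprm1 was not tested.

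In eccentric neurons no measured opioid gene was past 1.5-fold, where 4.89%, 2.06% and 4.22% of all measured genes were in the same order of comparisons. Oprm1 was higher in high anxiety than in low anxiety by 0.43 (0.19 to 0.68), but by 0.06 (-0.25 to 0.38) within cluster 8. Cluster 18, which held 17, 12 and 104 nuclei in urolithin A, high anxiety and low anxiety, lies in this class. Penk and Pdyn had class ratios between -0.20 and 0.06 in the 3 comparisons. Within cluster 8 Penk was lower in high anxiety than in low anxiety by 0.40 (log2 ratio -0.40, -0.53 to -0.27). In microglia, astrocytes, oligodendrocytes and their precursors no opioid gene had enough UMIs to be measured.

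**Figure D4:**
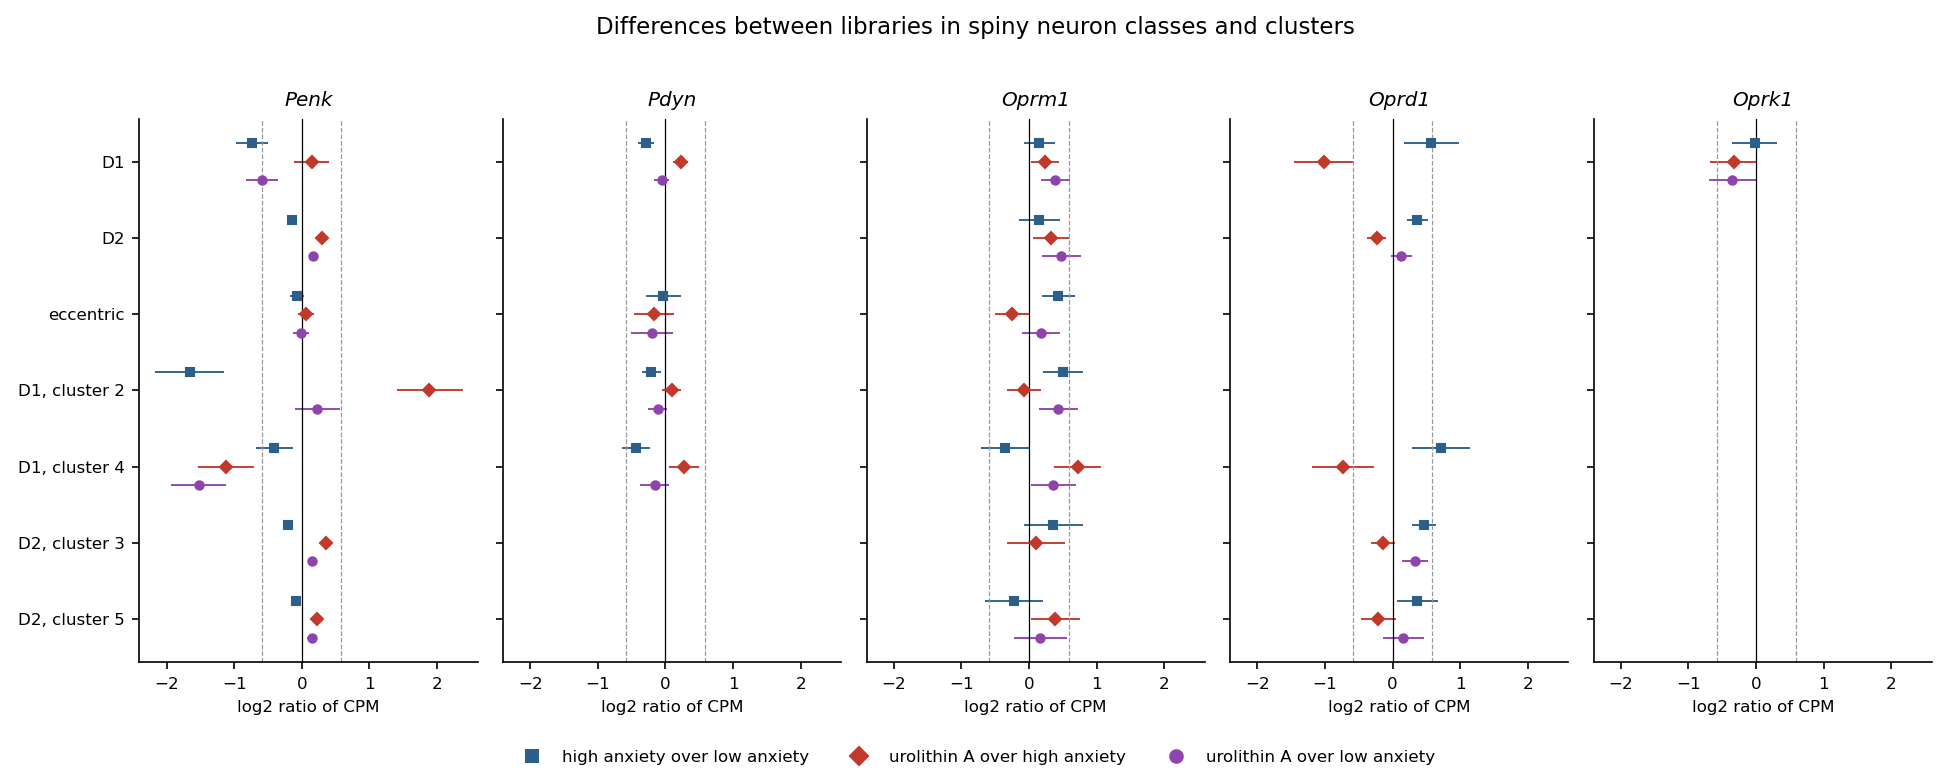
Points give log2 ratios of CPM for high anxiety over low anxiety (squares), urolithin A over high anxiety (diamonds) and urolithin A over low anxiety (circles) in medium spiny neuron classes and clusters, with exact conditional 95% intervals for counting error. Dashed lines mark 1.5-fold; genes with under 100 UMIs in both libraries are not drawn, and the Penk ratios of the 2 D1 clusters lie on opposite sides of 0 in urolithin A over high anxiety.

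The 2 D1 clusters were also compared separately. In high anxiety over low anxiety, 1 of 3 measured opioid genes was past 1.5-fold in cluster 2 (4.74% of all measured genes) and 1 of 4 in cluster 4 (4.85%). In urolithin A over high anxiety they were 1 of 3 in cluster 2 (1.9%) and 3 of 4 in cluster 4 (2.47%). In urolithin A over low anxiety they were 0 of 3 in cluster 2 (3.23%) and 1 of 3 in cluster 4 (2.99%). More of these calls fell in cluster 4, but the comparisons share libraries, so the calls are not separate results. The Penk calls also rested on few nuclei, as given below. The call of urolithin A over low anxiety in cluster 4 was Penk, at -1.52, where alternative settings gave -1.56 to -0.15.

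Most Oprd1 UMIs of the D1 class came from cluster 4, with 60 of 68 in urolithin A, 131 of 138 in high anxiety and 73 of 84 in low anxiety. There the log2 ratios were 0.71 (0.29 to 1.15) in high anxiety over low anxiety and -0.73 (-1.20 to -0.28) in urolithin A over high anxiety. Oprm1 in cluster 4 was at 84.9 CPM in urolithin A, 51.6 CPM in high anxiety and 66.1 CPM in low anxiety. Its ratio was 0.72 (0.37 to 1.07) in urolithin A over high anxiety and -0.36 in high anxiety over low anxiety. In cluster 2 Oprm1 was at 82.1, 86.2 and 61.0 CPM, with ratios of -0.07 in urolithin A over high anxiety and 0.50 (0.21 to 0.80) in high anxiety over low anxiety. High anxiety was the lowest library in cluster 4 and the highest in cluster 2.

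Penk ratios of the libraries had opposite signs in the D1 clusters in urolithin A over high anxiety. Cluster 2 had 57.8 CPM in urolithin A, 15.7 CPM in high anxiety and 49.3 CPM in low anxiety, and cluster 4 had 37.8, 82.0 and 108 CPM. In urolithin A over high anxiety the log2 ratios were 1.88 (1.41 to 2.38) in cluster 2 and -1.12 (-1.53 to -0.71) in cluster 4. These values rested on few nuclei. In cluster 2, 7, 0 and 2 nuclei held 121, 0 and 47 of 198, 45 and 127 Penk UMIs, and in cluster 4, 2, 4 and 8 nuclei held 21, 139 and 176 of 69, 197 and 238. Without nuclei of 10 or more Penk UMIs the ratio was 0.54 in cluster 2 and 0.11 in cluster 4.

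Genes that act with the opioid peptides and receptors were counted in D1 and D2 neurons from lists. Over all measured genes, 2.2% were higher and 2.83% lower past 1.5-fold in D1 neurons in high anxiety over low anxiety, and 1.31% and 0.903% in urolithin A over high anxiety; in D2 neurons these were 1.84% and 2.4%, and 1.56% and 0.605%. Of 14 genes of precursor processing and peptide breakdown, 12 were measured in D1 neurons. In high anxiety over low anxiety, 0 were higher and 1 was lower past 1.5-fold, with a median log2 ratio of -0.05 (-0.01 over all measured genes). It was Pcsk1n, which encodes the inhibitor proSAAS of the prohormone convertase that Pcsk1 encodes, with 435 CPM in high anxiety and 692 CPM in low anxiety (-0.67). In urolithin A over high anxiety, 2 were higher and 0 lower, with a median of 0.12 (0.03 over all). Pcsk1 had 32.4 CPM in urolithin A and 16.9 CPM in high anxiety (0.94), and Pcsk1n had 687 and 435 CPM (0.66). Mme, which encodes neprilysin, an enzyme that degrades enkephalins, had a ratio of -0.52 there, and Scg5, which encodes the convertase chaperone 7B2, of 0.41. D2 neurons stood in the same order for Pcsk1n, with 403 CPM in high anxiety and 605 CPM in low anxiety (-0.59), and 630 CPM in urolithin A and 403 CPM in high anxiety (0.64). It was the gene past 1.5-fold among 11 measured there in each of these 2 comparisons.

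Partners of the receptors were counted next. Of 20 G protein and regulator genes, 14 were measured in D1 neurons and 0 were past 1.5-fold in high anxiety over low anxiety or urolithin A over high anxiety, with medians of 0.07 and -0.00. In D2 neurons 0 of 12 and 1 of 13 measured were past it. The gene was Gnai1, an inhibitory G protein alpha subunit, with 91.4 CPM in urolithin A and 53.2 CPM in high anxiety (0.78). Rgs9, a striatal regulator that shortens the signal of inhibitory G proteins, had ratios of -0.48 in D1 and -0.54 in D2 neurons in urolithin A over high anxiety. Of 13 receptor kinase, arrestin and trafficking genes, 8 were measured in each class, and 0 were past 1.5-fold in these 2 comparisons. Of 19 effector genes (adenylyl cyclases, potassium and calcium channels and kinases), 14 in D1 and 13 in D2 neurons were measured, and 0 were past it there. Prkaca, a catalytic subunit of protein kinase A, came nearest among them, at 0.41 in D1 and 0.53 in D2 neurons in high anxiety over low anxiety.

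Of 14 transcription factors known to act on Penk or Pdyn, 6 were measured in each class in high anxiety over low anxiety. Past 1.5-fold was 1, Crem, a cyclic AMP response modulator, in D2 neurons, with 32.3 CPM in high anxiety and 20.4 CPM in low anxiety (0.66). Atf4, which binds cyclic AMP response elements, had ratios of -0.38 in D1 and -0.53 in D2 neurons in the same comparison. Kcnip3, which encodes DREAM, a repressor of Pdyn, had a ratio of -0.44 in D1 neurons in urolithin A over high anxiety.

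Precursors of other neuropeptides were counted as well. Of 14 listed, 4 were measured in D1 neurons. In high anxiety over low anxiety 0 were higher and 2 lower past 1.5-fold, with a median of -0.55, and in urolithin A over high anxiety 2 were higher and 0 lower, with a median of 0.61. Tac3, the neurokinin B precursor, had 224 CPM in urolithin A, 60.9 CPM in high anxiety and 127 CPM in low anxiety, and Nmb, the neuromedin B precursor, had 32.8, 18.6 and 28.9 CPM. The ventral striatum and shell list, which shares Cartpt and Nts with the peptide list, was also lowest in high anxiety. In D1 neurons its genes summed to 1232 CPM in urolithin A, 919 CPM in high anxiety and 1244 CPM in low anxiety. The D2 sums were 1453, 1110 and 1426 CPM. Cartpt alone gave 579, 439 and 601 CPM of the D1 sums. Nts did not follow in urolithin A over high anxiety, with ratios of -0.15 in D1 and -0.26 in D2 neurons. Of its 7 genes 5 were measured in each class, and 2 were lower past 1.5-fold in high anxiety over low anxiety and 2 higher in urolithin A over high anxiety. The list was lowest in high anxiety in D1 clusters 2 and 4 and in D2 clusters 3 and 5 as well, as Penk was in D2 neurons and Pdyn in D1 neurons. The dorsal striatum list summed to 151.5, 134 and 146 CPM in D1 neurons. The part of these lists in the opioid differences was not tested.

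For each opioid gene the genes with the most similar level over the 26 clusters, libraries summed, were listed by Pearson's r of log2(CPM + 10), as a description in which all points share libraries and depth. Within single libraries most of these r were lower, with 0.71 to 0.79 for Oprm1 and Arid3a and 0.44 to 0.92 for Pnoc and Crhbp. Penk was most like Gucy1a1 (r = 0.83), a subunit of soluble guanylyl cyclase, and Sdr16c6 (0.82). Pdyn was most like Drd1 (0.83), Il20ra (0.74) and Wfs1 (0.73). Pnoc followed the interneuron genes Sst (0.90), Npy (0.84) and Crhbp (0.83), where Sst and Npy were among the markers that named the class. Oprm1 was most like Arid3a (0.86), Zc2hc1a (0.83) and its overlapping neighbour Ipcef1 (0.80). Oprd1 was most like Fbxo41 (0.76), Phf24 (0.75) and Coro2a (0.75), Oprk1 like Morc1 (0.81), Htr1b (0.78), a serotonin receptor, and Dnaaf11 (0.77), and Oprl1 like Frmd3 (0.85), Nalf1 (0.84) and Gabra3 (0.82).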

How the data were processed

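Nuclear RNA of 3 libraries, 1 a group, was captured with the Chromium 3′ v3.1 kit named in the labels' protocols. The deposited matrices hold whole UMI counts; they come from Cell Ranger 7.1.0, per the file headers, and the submitters' processing notes name build mRatBN7.2. No source used here says whether free RNA was removed. Total counts were 19162530 UMIs in urolithin A, 22095390 in high anxiety and 16728049 in low anxiety.

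Nuclei needed 500 genes and no more than 5% mitochondrial UMIs. The top Scrublet doublet scores within each library (scanpy 1.11.5; 0.8% per 1000 nuclei) were left out. Leiden clustering (leidenalg 0.10.2, resolution 1, seed 7) of 2000 variable genes, without the 7 opioid genes and mitochondrial genes, used 30 components and 15 neighbours and gave 26 clusters. Of 17 marker lists, the one with the highest mean log2 fold named a cluster if 3 of its markers were at least 2-fold higher with 20 UMIs and 10 CPM; among medium spiny neurons the best subclass was used. No name was given where another class had more markers among the 10 leading genes, or where depth was low and no own marker led. These limits were set after the data were seen. Of 120 markers 114 matched, and of 120 list entries 116.

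UMIs were summed per class and library and scaled to CPM. Levels have exact Poisson, shares Clopper-Pearson, and ratios exact conditional intervals, at 95%; the floor for a count of 0 was 3 counts. The ratio code was tested on simulated data. Named were the 7 genes in every class, in each list genes among the 4 measured ones furthest from 0, and the 3 genes most like each opioid gene. A gene picked by the last rule is not reported here. The opioid genes, lists and comparisons were chosen with earlier results of these data known. Alternatives covered filters, doublets, clustering, scaling, thinning and the UMI minimum. Other tools were python 3.11.15, numpy 2.4.6, scipy 1.17.1, pandas 2.3.3, anndata 0.12.19, igraph 0.11.9, scikit-learn 1.9.0 and matplotlib 3.10.9.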

Additional observations from a re-analysis of the deposited data

Results flagged for a closer look

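There were 3 differences between libraries that ran in opposite directions in 2 classes or clusters; none of these contrasts of direction was tested, since each group had 1 library. Penk in urolithin A over low anxiety had a log2 ratio of -0.59 in D1 neurons and 0.16 in D2 neurons, a difference of -0.75; the D1 ratio was -0.33 without the nuclei of 10 or more Penk UMIs, and positive under the stricter nucleus filter (0.10) and in the largest cluster (0.23), where the directions were no longer opposite. Penk in urolithin A over high anxiety had ratios of 1.88 in D1 cluster 2 and -1.12 in D1 cluster 4, a difference of 2.996; without the nuclei of 10 or more Penk UMIs both ratios were positive, at 0.54 and 0.11. Oprm1 in high anxiety over low anxiety had ratios of 0.50 in cluster 2 and -0.36 in cluster 4, a difference of 0.86.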

How the results depend on the processing

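Which class held the highest level was the same for all 7 genes when the opioid genes were kept among the clustering genes, and for 6 of 7 under a stricter nucleus filter (1000 genes or more, 1% mitochondrial UMIs or less), where Oprl1 differed. The number of opioid genes 1.5-fold apart between D2 and D1 neurons was 5 under both of these settings and 4 after thinning, where the Oprk1 ratio was -0.42 in the library nearest to 0. The share over all genes was not computed for these counts. Over single ratios and alternatives, 649 values stayed within the main counting interval, 65 left it, and 3 more changed sign where the main ratio was past 1.5-fold. Of the 649, 78 came from a minimum of 50 UMIs and 57 from a minimum of 200 UMIs. These minima decide which genes are measured and cannot change a ratio, so those values carry no weight. Ratios under 1.5-fold changed sign more often: counting every ratio, at least 1 setting turned the sign for 5 and none for 9 in D1 neurons, 2 and 7 in D2 neurons, and 5 and 4 in eccentric neurons. With median-of-ratios scaling 78 of 78 stayed.

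Counts past 1.5-fold rested on 1 gene and moved easily. In D1 neurons the 1 gene of high anxiety over low anxiety became 0 under the stricter filter and at Leiden resolution 2, and 2 with clusters weighted equally and with nuclei rich in Penk left out. The 1 gene of urolithin A over high anxiety became 0 with a minimum of 200 UMIs, the stricter filter or thinning. That of urolithin A over low anxiety became 0 under the stricter filter, with no nucleus filter, with doublets kept, after thinning, without nuclei rich in Penk, in the largest cluster alone, and with the oligodendrocyte level taken off (the last chosen after seeing the data, as was leaving out nuclei rich in Penk). There, Penk in D1 neurons reversed to 0.10 under the stricter filter and 0.23 in the largest cluster. Penk of urolithin A over high anxiety in cluster 4 reversed to 0.11 without nuclei rich in Penk. In D2 neurons urolithin A over low anxiety gave 1 gene in place of 0 under the stricter filter; in eccentric neurons high anxiety over low anxiety gave 1 after thinning and urolithin A over high anxiety 1 under the stricter filter. The causes were not tested.

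Oprd1 of high anxiety over low anxiety in D1 neurons ranged from -0.81, in the largest cluster alone, to 0.85. In D2 neurons Penk ranged from -0.25 to -0.12 in high anxiety over low anxiety and from 0.27 to 0.35 in urolithin A over high anxiety, and Pdyn in D1 neurons from -0.30 to -0.21 in high anxiety over low anxiety, all with 1 sign. Without thinning, 5 genes in place of 3 were found in at least 10% of D1 or D2 nuclei of all libraries, and co-detection was 23.7% for Pdyn with Penk in eccentric neurons, 14.5% for Oprm1 with Oprd1 and 59.3% for Penk with Oprd1 in D2 neurons, and 13.1% for Pdyn with Oprk1 in D1 neurons. No paired analysis was possible because each group had 1 library, and for the same reason no library could be left out. Depth limits Oprl1, Oprk1 outside D1 neurons, Pnoc outside interneurons, and every interneuron cluster.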
